A study of Homo sapiens with 8 samples.

Results

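The genes described are 8 genes of the small ubiquitin-like modifier (SUMO) system, SUMO2, SUMO3, SAE1, UBA2, PIAS1, SENP1, SENP3 and SENP5, out of 57736 genes listed for each of 8 RNA-seq libraries. They were picked by name because SUMO3 was lower with doxycycline in the line with a hairpin against ASCL2, and their pseudogenes were left out. All 8 were found in every library and all 8 passed the filter on low values. The libraries come from LS174T, an established human colon adenocarcinoma line, in derivatives that express the Tet repressor and carry an inducible short hairpin RNA (shRNA). The study asked which genes change on loss of ASCL2, a basic helix-loop-helix transcription factor of intestinal stem cells, or of WiNTRLINC1, a long RNA that codes for no protein. The samples form 4 groups: the line with the shRNA against ASCL2 without doxycycline (n = 2) and with doxycycline at 1 ug/ml for 3 days (n = 2), and the line with the shRNA against WiNTRLINC1 without (n = 2) and with the same doxycycline treatment (n = 2). All 4 groups carry a hairpin cassette and the Tet repressor, and doxycycline-treated cells without a hairpin are not among these samples, so within a line the effect of the drug and that of its hairpin cannot be told apart. The WiNTRLINC1 hairpin was built in a pTER vector and positive clones were picked by RT-PCR, so a difference between lines cannot be told apart from a difference between clones. In all 8 samples the genotype label and the title name opposite targets, and the titles were followed here. The labels do not say that replicates were separate cultures, so p-values rest only on how far these libraries scatter, and that scatter may be technical.

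SUMO proteins are attached to lysines of other proteins, many of them nuclear, by a cascade that resembles that of ubiquitin. The E1 enzyme, a dimer of SAE1 and UBA2, activates SUMO, an E2 enzyme carries it to the substrate, E3 ligases such as the PIAS proteins help its transfer, and the SENP proteases mature SUMO precursors and take SUMO off again. SUMO2 and SUMO3 are nearly identical once matured and can form chains. In the gut epithelium, sumoylation is known to take part in the upkeep of dividing crypt cells.

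The 250 bases upstream of the RefSeq starts (build GRCh38.p14) of SUMO3 and of SUMO2 are shown because these close relatives had the largest and the smallest log2 difference of the 8 genes with doxycycline in the ASCL2 line. Capitals mark CANNTG, the E-box letters that basic helix-loop-helix factors, the family of ASCL2, can bind. They were searched on both strands (the motif reads as CANNTG on either). Which forms of these letters ASCL2 binds was not tested. The SUMO3 window is chr21:44818063-44818312 and the SUMO2 window is chr17:75182960-75183209, both on the minus strand and written 5′ to 3′ in the direction of the gene.
SUMO3: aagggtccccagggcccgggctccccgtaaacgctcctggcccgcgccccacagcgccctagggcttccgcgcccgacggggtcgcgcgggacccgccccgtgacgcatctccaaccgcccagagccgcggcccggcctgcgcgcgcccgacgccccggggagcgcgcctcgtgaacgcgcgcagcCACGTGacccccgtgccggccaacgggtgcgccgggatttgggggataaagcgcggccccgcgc
SUMO2: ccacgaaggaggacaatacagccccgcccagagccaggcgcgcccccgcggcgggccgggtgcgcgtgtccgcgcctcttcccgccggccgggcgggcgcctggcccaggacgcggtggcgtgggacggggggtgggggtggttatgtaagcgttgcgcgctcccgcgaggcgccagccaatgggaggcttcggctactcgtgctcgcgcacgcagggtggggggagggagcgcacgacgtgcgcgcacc
The SUMO3 window holds 1 E-box, CACGTG, with 0 of the form CAGCTG and 0 of CACCTG or CAGGTG. The SUMO2 window holds 0 E-boxes. At least 1 E-box is in 61.8% of the 35116 windows of this length, and CACGTG itself is in 6.34%. The RefSeq table held windows for 7 of the 8 genes, not for SAE1. The UBA2 window and 1 of the 2 PIAS1 windows hold 1 E-box each, CAGCTG, which is in 14% of all windows. The windows of SENP1, SENP3 and SENP5 hold 0. A match describes these letters only and is not a binding site.

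ASCL2 itself (ENSG00000183734, chromosome 11) was measured first. Its deposited value, taken here as a read count per gene scaled per library and rounded, was 2855 and 3373 in the untreated and 532 and 586 in the treated libraries of the ASCL2 line. The WiNTRLINC1 line had 2540 and 2034 untreated and 805 and 697 treated. All 4 treated libraries lay below all 4 untreated ones, so the swapped genotype label cannot be settled by this gene. Deposited totals ran from 21524463 to 22941231 per library. The 9 epithelial markers summed to between 100243 and 171988 per library. With doxycycline in the ASCL2 line, limma at a Benjamini-Hochberg adjusted p under 0.05 called 5 of them lower (KRT20, VIL1, CDX1, CDX2 and LGALS4). It called 1 higher (KRT19), where 12.7% of all genes were called lower and 13.9% higher. In the WiNTRLINC1 line 2 were called lower and 2 higher (9.03% and 9.54% of all genes). The part of these markers in the results was not tested. The markers of blood, endothelial and fibroblast cells, 9 of 10 of them in the tables, summed to between 51 and 276.

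SUMO3 (ENSG00000184900, chromosome 21), one of the modifiers, had values of 3739 and 3466 in the untreated and 735 and 782 in the treated libraries of the ASCL2 line. Values were 2221 and 2376 untreated and 1643 and 1946 treated in the WiNTRLINC1 line. The 4 groups followed each other without overlap, from the untreated ASCL2 line at the top through the untreated and then the treated WiNTRLINC1 line to the treated ASCL2 line at the bottom. In the ASCL2 line the group mean went from 3602.5 ± 193 to 758.5 ± 33.2 (SD, n = 2), which is 4.75-fold lower, or -2.25 ± 0.0915 (SE) on the log2 scale. This difference chose the gene and is given as a description. By size it was at rank 64 among the falls of all 22100 genes tested and at rank 11 among the 8438 whose mean value was 500 or more. Fewer cells of a kind and less RNA per cell cannot be told apart in such bulk libraries. The sum of the markers of other cells was 231 to 276 in the untreated and 108 to 127 in the treated libraries of the ASCL2 line. Most of that sum, and its difference, was 1 gene, COL1A1, at 200 and 222 against 60 and 99. Of the 4 such markers that passed the filter 1 was called lower there (COL1A1). By values 2 of the 4 were lower without overlap (COL1A1 and PTPRC) and 2 overlapped. Of all genes 12.7% were called lower and 29.8% were lower without overlap in that line. PTPRC values were low, at 13 and 12 untreated and 11 and 7 treated. The fibroblast markers COL1A2 (2 and 6 untreated, 5 and 2 treated) and LUM (1 and 0 untreated, 6 and 0 treated) overlapped in that line. The blood marker CD3E lay between 0 and 5 and the fibroblast marker DCN between 0 and 8 in all libraries. The part of other cells in the result was not tested.

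In the WiNTRLINC1 line, whose libraries the choice did not use, SUMO3 fell 1.28-fold (-0.36 ± 0.0915 SE on the log2 scale, n = 2 a group, limma, Benjamini-Hochberg adjusted p = 0.0121). Both treated libraries lay below both untreated ones. The gene no longer passed when the second untreated (limma, adjusted p = 0.0952) or the first treated library of that line (adjusted p = 0.16) was left out, with no filter (0.0827), without the mean-variance trend (0.12) and with the line fitted alone (0.0679). Over 16 alternatives the adjusted p ran from 0.00679 to 0.16. The response was 1.88 ± 0.129 (SE) higher on the log2 scale than in the ASCL2 line, a difference that contains the contrast used to choose the gene and is not tested. The markers of other cells summed in the WiNTRLINC1 line to 68 to 80 untreated and 51 to 68 treated. Limma called 0 of the 4 that passed the filter, with 0 at an unadjusted p under 0.05. Of all genes 9.03% were called lower and 9.54% higher in that line.

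SUMO2 (ENSG00000188612, chromosome 17), the close relative of SUMO3, had 2143 and 2367 in the untreated and 2323 and 2297 in the treated libraries of the ASCL2 line. The groups overlapped, with a log2 difference of 0.04 ± 0.0822 (SE) that turned to -0.02 under quantile normalization and -0.04 without the first untreated library. Untreated WiNTRLINC1 libraries had 1313 and 1295, and treated ones 1299 and 1429, which overlapped too (0.06 ± 0.0822, limma with Benjamini-Hochberg adjusted p = 0.676). Adding the values of its 19 pseudogenes, which sum to as much as 48.2% of SUMO2 in a library, moved the ASCL2 line to 0.11 and the WiNTRLINC1 line to 0.09 and ended the overlap in both, with sums of 2999 and 3194 untreated against 3340 and 3348 treated in the ASCL2 line and 1898 and 1847 against 1925 and 2057 in the other. Such copies can share reads with their parent, and the counting program is not given in the sources used here, so the level of SUMO2 is uncertain. The files list 0 pseudogenes named after SUMO3. SUMO4, a further SUMO gene, lay between 9 and 31 in every library.

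**Figure D1:**
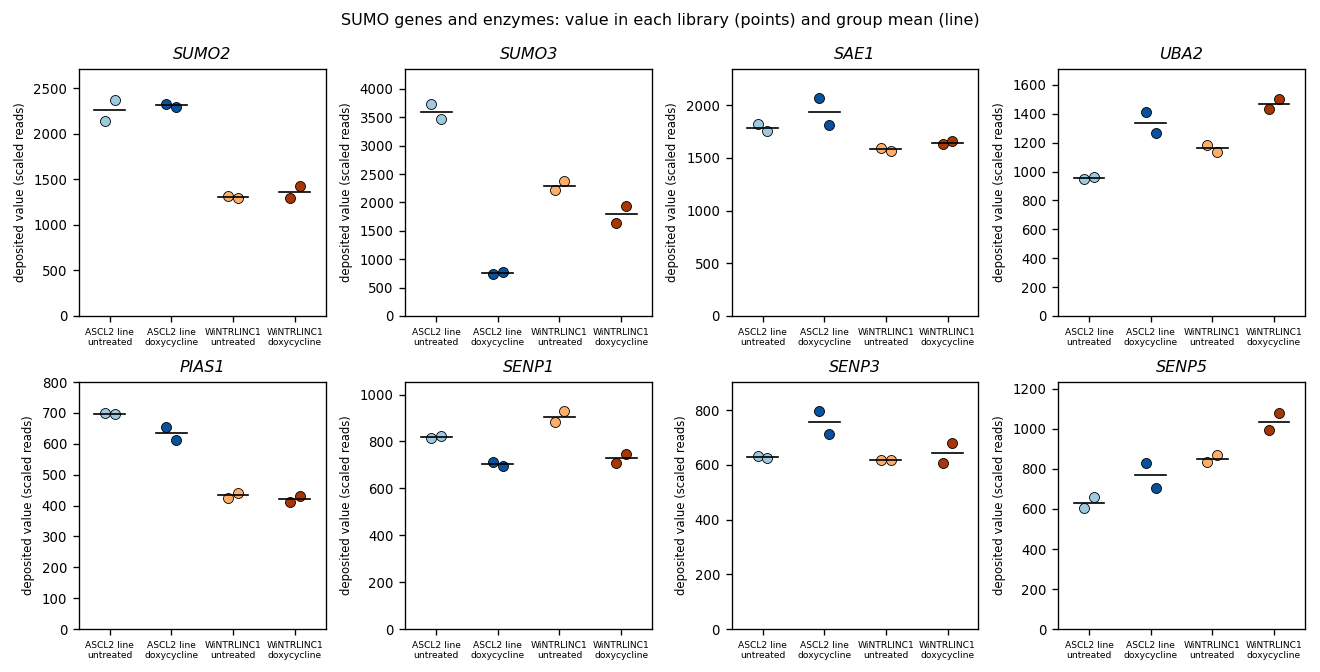
Deposited value (scaled reads, linear axis from 0) of each of the 8 genes in each library. Points are the 2 libraries of a group and the line is their mean. SUMO3 goes from 3739 and 3466 to 735 and 782 in the ASCL2 line, while SUMO2 and SAE1 overlap between the groups of that line.

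Levels of different genes were compared per kb of exon (the union of exons in GENCODE 29). On this scale SUMO3 was above SUMO2 in the untreated ASCL2 line, at 1369 and 1269 against 636 and 702 per kb, and below it in the treated one, at 269 and 286 against 689 and 681. SUMO3 stayed above SUMO2 in the WiNTRLINC1 line, at 813 and 870 against 389 and 384 untreated and at 601 and 712 against 385 and 424 treated. The order of the pair differed between untreated and treated libraries in the ASCL2 line and was the same in all 4 libraries of the other. The ratio of SUMO3 to SUMO2 went from 1.98 ± 0.245 to 0.405 ± 0.021 (SD, n = 2) in the ASCL2 line and from 2.18 ± 0.125 to 1.62 ± 0.0846 in the WiNTRLINC1 line. As a share of the sum of both genes, SUMO3 was 68.3% and 64.4% in the untreated and 28.1% and 29.6% in the treated ASCL2 line. The WiNTRLINC1 line had 67.6% and 69.4% untreated and 61% and 62.7% treated. The untreated shares of the lines overlapped, and in each line the treated libraries were below the untreated ones. The sum of both genes per kb was 2004 and 1971 untreated and 958 and 967 treated in the ASCL2 line, and 1202 and 1254 untreated and 987 and 1136 treated in the WiNTRLINC1 line. These shares carry the SUMO3 difference that chose the set, so the ASCL2 line is a description.

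**Figure D2:**
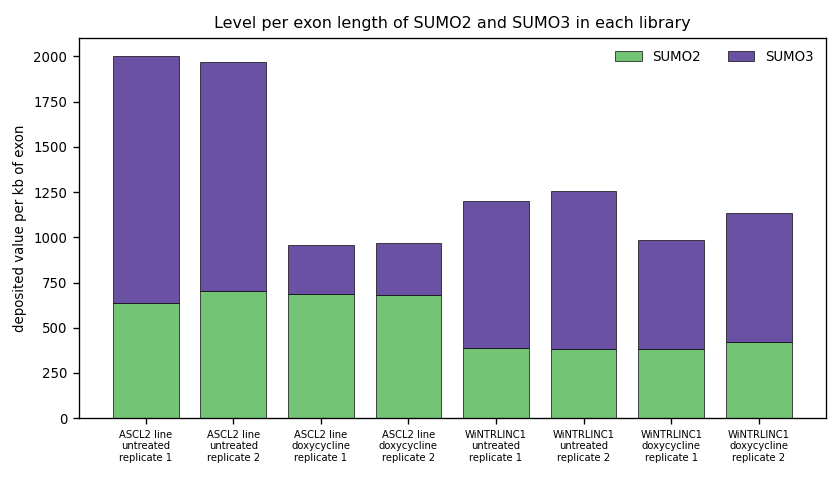
Deposited value per kb of exon of SUMO2 and SUMO3, stacked, in each of the 8 libraries (linear axis from 0). The SUMO3 segment is 1369 and 1269 in the untreated and 269 and 286 in the treated ASCL2 line, and the total goes from 2004 and 1971 to 958 and 967.

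The E1 enzyme is made of SAE1 and UBA2. UBA2 (ENSG00000126261, chromosome 19), the catalytic subunit, had 946 and 963 in the untreated and 1409 and 1265 in the treated libraries of the ASCL2 line, a log2 difference of 0.48 ± 0.0852 (SE) without overlap. Values were 1184 and 1136 untreated and 1432 and 1500 treated in the WiNTRLINC1 line, where UBA2 rose 1.26-fold (0.34 ± 0.0852, limma with Benjamini-Hochberg adjusted p = 0.0119). The treated libraries lay above the untreated ones of the same line in both lines. That rise no longer passed without the second untreated library of the line (limma, adjusted p = 0.0734), without its second treated library (0.099) and without the mean-variance trend (0.0832), with 0.00845 as the lowest of 16 alternatives.

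SAE1 (ENSG00000142230, chromosome 19), the other subunit, had 1823 and 1755 untreated and 2070 and 1809 treated in the ASCL2 line, which overlapped (0.11 ± 0.0827). Untreated WiNTRLINC1 libraries had 1595 and 1568, and treated ones 1631 and 1661. There the treated libraries were slightly above the untreated ones and the difference did not pass the test (0.06 ± 0.0827, limma with Benjamini-Hochberg adjusted p = 0.71). Per kb of exon UBA2 was below SAE1 in every library. The ratio of UBA2 to SAE1 was 0.366 and 0.387 untreated and 0.48 and 0.493 treated in the ASCL2 line, and 0.524 and 0.511 untreated and 0.619 and 0.637 treated in the WiNTRLINC1 line, higher in the treated libraries of both.

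PIAS1 (ENSG00000033800, chromosome 15) is the E3 ligase among the 8 genes. It had 700 and 695 untreated and 654 and 613 treated in the ASCL2 line, a log2 difference of -0.14 ± 0.0991 without overlap. For the WiNTRLINC1 line the values were 425 and 441 untreated and 412 and 431 treated, with overlap (-0.04 ± 0.0991, limma with Benjamini-Hochberg adjusted p = 0.849). Of its exon bases 30.3% lie opposite those of CALML4 on the other strand, and the use of strand in counting is not given in the sources used here, so reads of the pair cannot be told apart.

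The proteases SENP1, SENP3 and SENP5 remove SUMO from proteins, SENP3 and SENP5 with a preference for SUMO2 and SUMO3. SENP1 (ENSG00000079387, chromosome 12) had 814 and 823 untreated and 713 and 695 treated in the ASCL2 line (-0.22 ± 0.0888, no overlap). The WiNTRLINC1 line had 884 and 929 untreated and 710 and 748 treated, and SENP1 fell 1.24-fold (-0.31 ± 0.0888, limma with Benjamini-Hochberg adjusted p = 0.0223). The treated libraries of each line lay below its untreated ones. This call was lost when any one of the 4 libraries of the line was left out (limma, adjusted p from 0.0534 to 0.133), without the mean-variance trend (0.074) and with the line fitted alone (0.0576). Of the SENP1 exon bases 9.9% lie opposite those of PFKM.

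SENP5 (ENSG00000119231, chromosome 3) had 603 and 661 untreated and 831 and 704 treated in the ASCL2 line (0.28 ± 0.103, no overlap). Values were 833 and 871 untreated and 993 and 1078 treated in the WiNTRLINC1 line. Both treated libraries were above both untreated ones there, but the difference did not pass the test (0.28 ± 0.103, limma with Benjamini-Hochberg adjusted p = 0.0739). SENP3 (ENSG00000161956, chromosome 17) had 634 and 625 untreated and 797 and 714 treated in the ASCL2 line (0.26 ± 0.0996, no overlap). Untreated WiNTRLINC1 libraries had 617 and 617, and treated ones 609 and 679, with overlap (0.06 ± 0.0996, limma with Benjamini-Hochberg adjusted p = 0.757). SENP3 shares 41.2% of its exon bases with the read-through gene SENP3-EIF4A1 on the same strand. The read-through gene is not among the genes listed for these libraries. Any reads from it therefore cannot be told apart here, and the level of SENP3 is uncertain.

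In the ASCL2 line 3 of the 8 genes (SUMO3, PIAS1 and SENP1) were lower in both treated libraries than in both untreated ones, 3 (UBA2, SENP3 and SENP5) were higher and 2 (SUMO2 and SAE1) overlapped. With pseudogenes added to SUMO2 the 3 higher became 4. Among all 22100 genes tested, 29.8% were lower and 30.8% higher without overlap. The median log2 difference of the 8 genes there was 0.08, against 0.01 over all genes. Among the same 8 genes in the WiNTRLINC1 line, limma at a Benjamini-Hochberg adjusted p under 0.05 called 2 lower (SUMO3 and SENP1) and 1 higher (UBA2), and 5 did not pass. Of all genes tested 9.03% were called lower and 9.54% higher in that line, and the median was 0.06 for the 8 genes and 0.01 for all. With 2 libraries a group the intervals are wide, and a gene that did not pass is not shown to be unchanged.

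**Figure D3:**
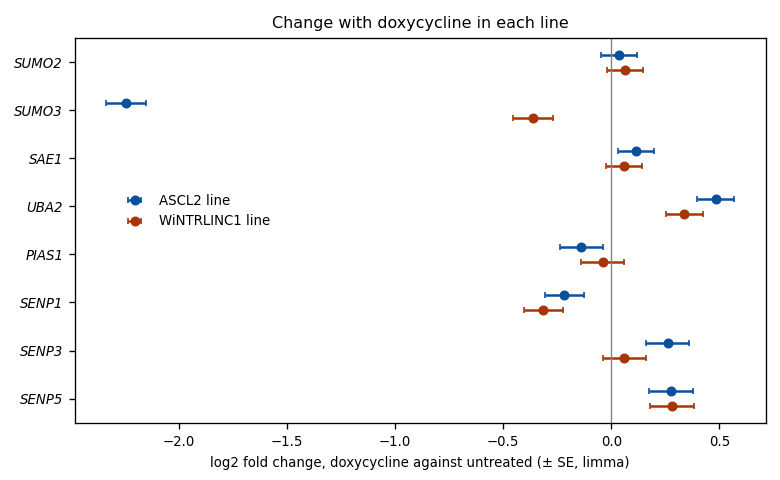
Log2 fold change of the 8 genes, doxycycline against untreated, in the ASCL2 line and the WiNTRLINC1 line, with bars for the SE from limma over all 8 libraries. SUMO3 stands at -2.25 in the ASCL2 line and at -0.36 in the WiNTRLINC1 line, and UBA2 lies above 0 and SENP1 below 0 in both.

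The untreated lines were also compared with each other, WiNTRLINC1 line against ASCL2 line. This comparison shares the untreated ASCL2 libraries with the contrast that chose SUMO3, so SUMO3 is given without a test: it was 1.57-fold lower in the untreated WiNTRLINC1 line (-0.65 ± 0.0915). SUMO2 was at 1313 and 1295 against 2143 and 2367, a log2 difference of -0.79 ± 0.0822 (n = 2 per group, adjusted p from limma = 1.25e-06). PIAS1 was at 425 and 441 against 700 and 695, a log2 difference of -0.69 ± 0.0991 (adjusted p from limma = 3.3e-05). Both genes were lower in the untreated WiNTRLINC1 line, with no overlap between the lines.

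SENP5 was higher in the untreated WiNTRLINC1 line, at 833 and 871 against 603 and 661 (0.43 ± 0.103, limma with Benjamini-Hochberg adjusted p = 0.00235). UBA2 was higher as well, at 1184 and 1136 against 946 and 963 (0.28 ± 0.0852, adjusted p = 0.0115). The UBA2 call was lost without the first untreated WiNTRLINC1 library (limma, adjusted p = 0.0643), and 0.00368 was the lowest of 16 alternatives. SAE1 (-0.18 ± 0.0827, adjusted p = 0.0824), SENP1 (0.15 ± 0.0888, adjusted p = 0.177, and 0.0464 under quantile normalization) and SENP3 (-0.03 ± 0.0996, adjusted p = 0.823, with 0.06 under quantile normalization) did not pass limma's test. In all, 2 of the 7 genes other than SUMO3 were lower and 2 were higher, where 29.5% of all genes tested were called lower and 25.7% higher in this comparison, so many genes differ between the lines. The epithelial markers differed too: 5 of 9 were called lower in the untreated WiNTRLINC1 line (KRT8, KRT19, KRT20, VIL1 and LGALS4) and 3 higher (EPCAM, CDH1 and CDX1). Their sum, of which the keratin gene KRT8 is the largest part, was 153876 to 170682 in the untreated ASCL2 line and 100243 to 104472 in the untreated WiNTRLINC1 line, and the part of these markers in the differences was not tested.

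Of the other SUMO pathway genes, 14 were counted and all 14 passed the filter. In the ASCL2 line 1 of them rose (DESI1), 1 fell (PIAS4) and 12 did not pass limma with Benjamini-Hochberg adjustment, while 13.9% of all genes were called higher and 12.7% lower there. Their median log2 fold change was -0.11, against 0.01 for all genes. In the WiNTRLINC1 line 1 rose, again DESI1, 0 fell and 13 did not pass, with a median of -0.00255. Of all genes 9.54% were called higher and 9.03% lower in that line. At an unadjusted p under 0.05 by limma 3 of the 14 were lower and 1 higher. Over all 22100 genes 6634 had such a p in either direction. PIAS2, PIAS3, RANBP2, ZNF451, NSMCE2, SENP2, SENP6, SENP7, DESI2 and USPL1 were among those that did not pass in either line. So was SENP8, a protease of NEDD8 and not of SUMO.

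PIAS4 (ENSG00000105229, chromosome 19), an E3 ligase of the same family as PIAS1, had 908 and 860 untreated and 600 and 622 treated in the ASCL2 line. It fell 1.45-fold (-0.53 ± 0.0881, limma with Benjamini-Hochberg adjusted p = 0.000424). The WiNTRLINC1 line had 832 and 811 untreated and 909 and 917 treated, which did not pass (0.15 ± 0.0881, adjusted p from limma = 0.273). The difference of the responses was 0.68 ± 0.125 (limma, adjusted p = 0.00156), where 15% of all genes were called for a difference between the lines. PIAS4 was named for its call in the ASCL2 line, which this difference contains. DESI1, a desumoylating protease, had 1092 and 1051 untreated and 1369 and 1371 treated in the ASCL2 line (0.35 ± 0.0847, adjusted p from limma = 0.00611, and 0.0638 without the mean-variance trend). Values were 1849 and 1662 untreated and 2006 and 2204 treated in the WiNTRLINC1 line (0.26 ± 0.0847, adjusted p from limma = 0.0432). The WiNTRLINC1 call of DESI1 was lost in 10 of 16 alternatives, with adjusted p from 0.0305 to 0.292. They included leaving out either treated ASCL2 library (0.0645 and 0.0642), the second untreated WiNTRLINC1 library (0.261) and either treated WiNTRLINC1 library (0.0596 and 0.292).

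Among 11 tested genes for proteins that read SUMO, make up PML nuclear bodies or are well-known SUMO targets, 4 fell and 1 rose in the ASCL2 line and 3 fell and 1 rose in the WiNTRLINC1 line. Over all genes 12.7% fell and 13.9% rose in the first and 9.03% fell and 9.54% rose in the second. The medians of the 11 were -0.18 and 0.09. PML, the scaffold of the nuclear body, had 1763 and 1706 untreated and 1251 and 1329 treated in the ASCL2 line (-0.43 ± 0.0787, adjusted p from limma = 0.000958). Untreated WiNTRLINC1 libraries had 1593 and 1550, and treated ones 1101 and 1092 (-0.52 ± 0.0787, adjusted p from limma = 0.000283). Its fall was called in both lines and in each of 16 alternatives. SP100, another gene of this list, was called higher in the WiNTRLINC1 line, from 827 and 842 to 1013 and 1084 (0.33 ± 0.09, adjusted p from limma = 0.019). It was not called in the ASCL2 line, with 1431 and 1654 untreated and 1334 and 1353 treated (-0.20 ± 0.09, adjusted p from limma = 0.129). TOPORS fell in the ASCL2 line (-0.55 ± 0.108, adjusted p from limma = 0.00156) but was not called in the other (0.16 ± 0.108, 0.367). SIMC1 was the 1 that rose in the ASCL2 line (0.48 ± 0.115, adjusted p from limma = 0.00618). In the WiNTRLINC1 line SIMC1 was not called (0.21 ± 0.115, adjusted p from limma = 0.254).

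DAXX, a histone chaperone recruited to PML bodies, had 2886 and 2515 untreated and 1798 and 2034 treated in the ASCL2 line (-0.49 ± 0.0894, adjusted p from limma = 0.000838). For the WiNTRLINC1 line the values were 3906 and 3538 untreated and 2416 and 2454 treated (-0.61 ± 0.0894, adjusted p from limma = 0.000209). TRIM28, a corepressor that is itself a SUMO ligase and target, had 22094 and 18814 untreated and 12709 and 14104 treated in the ASCL2 line (-0.61 ± 0.0989, adjusted p from limma = 0.000374). The WiNTRLINC1 line had 25338 and 22216 untreated and 18983 and 16332 treated (-0.43 ± 0.0989, adjusted p from limma = 0.00671). Treated libraries lay below the untreated ones of the same line for both genes. TRIM28 no longer passed in the WiNTRLINC1 line without its first untreated (adjusted p from limma = 0.092) or second treated library (0.115), with no filter (0.0914) and without the mean-variance trend (0.125), with 0.0038 as the lowest of 16 alternatives.

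Genes of other ubiquitin-like systems were counted for comparison. Of 19, limma called 4 higher and 2 lower in each line, with medians of 0.05 and 0.05. The 2 lower are near the shares over all genes, 12.7% in the ASCL2 line and 9.03% in the other, and the shares called higher were 13.9% and 9.54%. ATG12, the modifier of autophagy, rose in both, by 1.06 ± 0.102 in the ASCL2 line (1038 and 1140 to 2269 and 2265, adjusted p from limma = 3.08e-06) and by 0.66 ± 0.102 in the WiNTRLINC1 line (854 and 826 to 1184 and 1486, adjusted p from limma = 0.000332). UBA7, the E1 of the interferon-induced modifier ISG15, had 432 and 472 untreated and 202 and 187 treated in the ASCL2 line (-1.21 ± 0.111, adjusted p from limma = 1.85e-06). Values were 1099 and 1030 untreated and 1200 and 1013 treated in the WiNTRLINC1 line, with overlap (0.05 ± 0.111, adjusted p from limma = 0.821). ISG15 itself overlapped in the ASCL2 line, at 12636 and 11342 untreated and 9777 and 12990 treated (-0.09 ± 0.131, adjusted p from limma = 0.679). It overlapped in the WiNTRLINC1 line too, at 4104 and 3113 against 3531 and 3156 (-0.10 ± 0.131, adjusted p from limma = 0.684). UBE2L6, the E2 of ISG15, had 1719 and 1707 untreated and 881 and 1306 treated in the ASCL2 line (-0.67 ± 0.138, adjusted p from limma = 0.00216, but 0.0629 with no filter and 0.0738 without the mean-variance trend). Untreated WiNTRLINC1 libraries had 841 and 721 of it, and treated ones 1051 and 1060 (0.44 ± 0.138, adjusted p from limma = 0.039), a call that was lost without any one library of that line (0.0595 to 0.26) or either untreated ASCL2 library (0.0559 and 0.0565), with no filter (0.247) and without the trend (0.23).

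In the NEDD8 pathway the E2 gene UBE2F fell in the WiNTRLINC1 line, from 380 and 414 to 173 and 137 (-1.36 ± 0.142, limma with Benjamini-Hochberg adjusted p = 9.37e-06). The catalytic E1 subunit UBA3 fell there too, from 622 and 801 to 465 and 408 (-0.70 ± 0.122, adjusted p from limma = 0.00095, and 0.0541 without the mean-variance trend). NAE1, the other E1 subunit, was called higher there (0.28 ± 0.084, adjusted p from limma = 0.0321). The E2 gene UBE2M (0.15 ± 0.0962, adjusted p from limma = 0.34) and NEDD8 itself (-0.25 ± 0.0856, 0.0573) were not called there. NEDD8 was called higher in the ASCL2 line (0.28 ± 0.0856, adjusted p from limma = 0.0236), and NAE1 and UBE2M were not called. In the ASCL2 line UBE2F had 360 and 368 untreated and 259 and 297 treated (-0.39 ± 0.142, adjusted p from limma = 0.0554, and 0.0464 at a value of at least 50 in 4 libraries), and UBA3 had 982 and 999 untreated and 1049 and 913 treated (-0.02 ± 0.122, adjusted p from limma = 0.938). Of 4 ubiquitin genes and ubiquitin E1 enzymes, 1 was called higher in the ASCL2 line, the E1 gene UBA6, which had 692 and 823 untreated and 1100 and 948 treated (0.44 ± 0.106, adjusted p from limma = 0.0068). The UBA6 call was lost without the first untreated (0.0845) or the first treated library (0.0978) of that line, with no filter (0.0569), without the mean-variance trend (0.0744) and with the line alone (0.0505). Limma called 0 of the 4 in the WiNTRLINC1 line, with 0 at an unadjusted p under 0.05. Of all genes 13.9% were called higher and 12.7% lower in the ASCL2 line, and 9.54% and 9.03% in the WiNTRLINC1 line. With 4 genes, nothing is read from these counts.

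**Figure D4:**
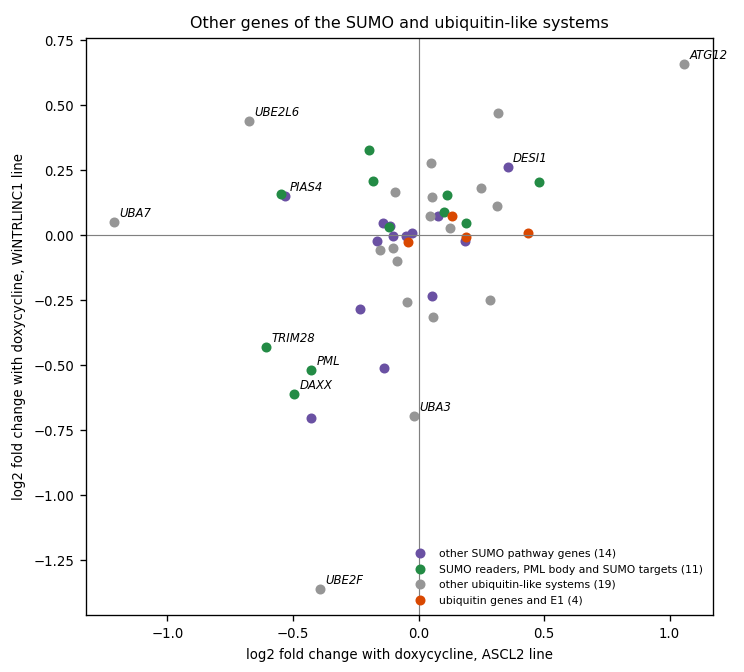
Log2 fold change with doxycycline in the ASCL2 line (horizontal) against the WiNTRLINC1 line (vertical) for 14 other SUMO pathway genes, 11 SUMO readers and targets, 19 genes of other ubiquitin-like systems and 4 ubiquitin genes and E1 enzymes. Each point is a gene. PML, DAXX and TRIM28 lie below 0 and DESI1 above 0 on both axes, while PIAS4 is at -0.53 and 0.15.

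The 5 nearest tested genes with a symbol on each side of SUMO3 on chromosome 21 were read as its neighbours. By limma with Benjamini-Hochberg adjustment the ASCL2 line had 2 of the 10 called higher and 3 lower, and the WiNTRLINC1 line 1 higher and 1 lower, the latter near the 9.54% and 9.03% of all genes (13.9% and 12.7% in the ASCL2 line). The medians were -0.20 and -0.01. PTTG1IP, the nearest on one side and a gene for a membrane protein, had 7364 and 7462 untreated and 5467 and 5541 treated in the ASCL2 line (-0.43 ± 0.0671, adjusted p from limma = 0.000259). Untreated WiNTRLINC1 libraries had 5764 and 5720, and treated ones 5531 and 5842 (-0.01 ± 0.0671, adjusted p from limma = 0.919). UBE2G2, an E2 enzyme of ubiquitin, was called higher in both lines, by 0.25 (adjusted p from limma = 0.022) and 0.36 (0.00335, and 0.0737 without the trend). In the ASCL2 line its call was lost with no filter (adjusted p from limma = 0.0693), under quantile normalization (0.0892) and without the trend (0.128). It was also lost without the first untreated (log2 difference 0.22) or the second treated library (0.21) of that line. IMMTP1 in the ASCL2 line (0.37, adjusted p from limma = 0.0303) was not called without the second untreated (0.286), first treated (0.0898) or second treated library (0.159) of that line. TSPEAR-AS2 (-0.43, adjusted p from limma = 0.0481) was lost without any one library of that line (0.0718 to 0.269) or either treated WiNTRLINC1 library (0.0623 and 0.0612). SSR4P1 (-1.18, adjusted p from limma = 0.048) was lost without either untreated (0.181 and 0.118) or the first treated library (0.394) of that line or any one WiNTRLINC1 library (0.0563 to 0.0606). LINC01547 in the WiNTRLINC1 line (-0.83, adjusted p from limma = 0.00919) was not called without the second untreated (0.0617) or the second treated library (0.107) of that line. None of these 10 genes had a log2 difference as far from 0 as that of SUMO3 in the ASCL2 line.

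The genes whose log2 values were most like those of SUMO3 over the 8 libraries were sought among 8240 genes that have a symbol and average 500 or more. They were GTF2H3, a subunit of the general transcription factor TFIIH (Pearson r = 0.993), MUL1, a ligase of the mitochondrial outer membrane (0.992), TMED10, a cargo receptor of the early secretory pathway (0.989), VPS4A, an ATPase of the ESCRT machinery (0.986), and NBR1, an autophagy receptor (0.982). The likeness is a description over 8 libraries that fall into groups of 2, and all 6 genes are lowest in the treated ASCL2 line. TMED10 had 4626 and 4143 untreated and 1584 and 1528 treated in the ASCL2 line, and 3266 and 3558 untreated and 2955 and 3299 treated in the WiNTRLINC1 line. GTF2H3 had 1232 and 1182, then 468 and 514, then 924 and 1022, then 833 and 913 in the same order of groups. The log2 differences of the 5 genes in the ASCL2 line ran from -1.49 for TMED10 to -0.87 for VPS4A, all nearer to 0 than that of SUMO3. In the WiNTRLINC1 line they ran from -0.16 to -0.10.

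**Figure D5:**
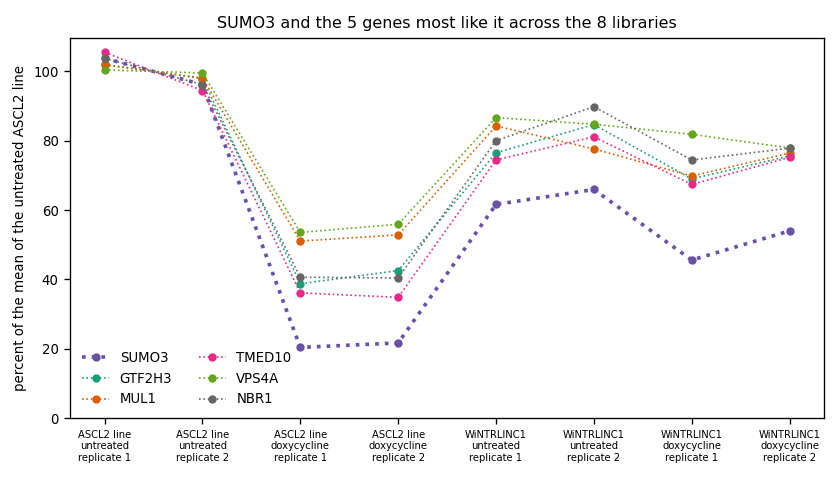
SUMO3 and the 5 genes with the highest Pearson r with it, as a percent of the mean of the untreated ASCL2 line, in each library (linear axis from 0, dotted lines only join the points of a gene). All 6 genes are lowest in the 2 treated libraries of the ASCL2 line, and SUMO3 is the lowest of the 6 in every library but those of the untreated ASCL2 line.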

How the data were processed

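RNA of 8 libraries was sequenced on the Ion Proton. The submitters' processing notes list cutadapt, TopHat2 2.0.9, DESeq and Cufflinks, and the builds hg19, mm9 and GRCh37, with no roles. How reads were counted, and whether by strand, is not given in the sources used here. Each deposited score is a whole number per gene. It was taken as a read count scaled per library and rounded by the authors, since in 4 libraries 3 to 64 of the whole numbers from 1 to 400 never occur, as after scaling up. In the other 4 libraries 0 are missing, which leaves their scaling unsettled. The 2 libraries a group limit the precision. Totals of 21524463 to 22941231 are sums of the same deposited values, so they do not give the number of reads sequenced. A count test could not be used on such values, so limma 3.58.1 in R 4.3.3 was fitted, with a mean-variance trend, to log2(value + 1) of all 8 libraries in 4 groups. Fold changes on this scale understate changes of low genes. The filter kept the 22100 genes that reached 10 in 2 or more libraries, and calls were made at a Benjamini-Hochberg adjusted p under 0.05 over all of them. The script was tested on simulated data.

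Of 57736 Ensembl identifiers 39501 matched a symbol, and the rest held 2.34% of the values. Of the listed genes, ARKL1 and PECAM1 were not matched. Exon lengths and overlaps are from GENCODE 29 and upstream bases from RefSeq. The members and lists were chosen with earlier results of these data known. Named genes were the 8 members, ASCL2, up to 3 called genes per list and line with the smallest adjusted p, called neighbours of SUMO3, and the 5 genes most like SUMO3. SUMO4, SP100, TOPORS, SIMC1, NEDD8, NAE1, cell markers and genes that did not pass were named beside this rule. Some genes of the lists are not reported here, and the counts for the lists leave them out. Alternatives were a pseudocount of 5, no filter, at least 50 in at least 4 libraries, rescaling by median-of-ratios, quantile normalization, no trend, each line alone, a replicate block, leaving out each library, adding pseudogenes and, chosen after seeing the data, the longest coding transcript as length.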

Additional observations from a re-analysis of the deposited data

Results flagged for a closer look

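For 7 of the genes named by the rule above, the response was called different between the lines. The test was of the difference itself (WiNTRLINC1 line minus ASCL2 line, log2 scale, n = 2 per group, limma with Benjamini-Hochberg adjustment, SE after ±). Of all genes tested 15% were called so, but the named genes other than ASCL2 were named for a call in 1 of the lines, which the difference contains, so nothing is read from their number. The fall of ASCL2 was smaller in the WiNTRLINC1 line, with a difference of 0.87 ± 0.165 (adjusted p from limma = 0.00206, but 0.0877 when the mean-variance trend was left out and 0.0642 with no filter). The ligase gene PIAS4 was lower with doxycycline in the ASCL2 line alone, and its responses differed by 0.68 ± 0.125 (adjusted p from limma = 0.00156). PTTG1IP, next to SUMO3, differed by 0.41 ± 0.0948 (adjusted p from limma = 0.00766, but 0.0932 without the trend). In the ISG15 pathway the E1 gene UBA7 differed by 1.26 ± 0.157 (adjusted p from limma = 6.46e-05). ISG15 itself was not called for a difference (-0.01 ± 0.186, adjusted p from limma = 0.981). The ISG15 E2 gene UBE2L6 differed by 1.11 ± 0.196 (adjusted p from limma = 0.0012, but 0.0615 with no filter and 0.0819 without the trend). In the NEDD8 pathway UBE2F differed by -0.97 ± 0.201 (adjusted p from limma = 0.00404, but 0.0554 without the trend) and UBA3 by -0.68 ± 0.173 (adjusted p from limma = 0.0146). The UBA3 difference was not called without the first treated ASCL2 library (0.0848) or the second untreated (0.0721) or second treated WiNTRLINC1 library (0.0735), with no filter (0.132) or without the trend (0.142). SUMO3 has the larger difference, 1.88 ± 0.129, but the choice of the set used it.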

How the results depend on the processing

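Of the 86 single-gene differences examined, no called one changed sign under any alternative. A further 13, none of them called and the largest at 0.14, did under at least 1. Of the 40 called single-gene differences 21 were lost without the mean-variance trend and 14 with no filter, and 0 to 4 under each of the other settings that kept all libraries and both lines. The SUMO3 difference in the ASCL2 line ran from -2.30 to -2.19 when each library was left out. In the WiNTRLINC1 line SUMO3 stayed at -0.36 but was not called with no filter, without the mean-variance trend or with the line fitted alone, and it ran from -0.48 to -0.24 when libraries were left out. Of the 8 genes, those called lower in the WiNTRLINC1 line numbered 2, but 1 with no filter, 0 without the trend and 0 with the line alone, and 0 to 2 when libraries were left out. The 1 called higher became 0 without the trend and 0 to 1 when libraries were left out. In the untreated comparison 2 of 7 were higher, and 1 to 2 when libraries were left out.

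Of the other SUMO pathway genes, the 1 called higher in the ASCL2 line became 0 without the trend. In the WiNTRLINC1 line 1 called higher became 0 with no filter, quantile normalization, no trend or the line alone, and 0 to 1 when libraries were left out, while 0 called lower became 1 at a value of at least 50 in 4 libraries and 0 to 1 when libraries were left out. SUMO3 neighbours called lower in the ASCL2 line went from 3 to 1 with no filter, quantile normalization, no trend or the line alone (1 to 2 with libraries left out), and those called higher from 2 to 0 with no filter or no trend and to 1 with quantile normalization or the line alone (0 to 2). In the WiNTRLINC1 line the 1 called lower became 0 with no filter, no trend or the line alone (0 to 1), and the 1 called higher became 0 without the trend (1 to 2).

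The mean share of SUMO3 in the sum of SUMO2 and SUMO3 per length in the untreated and treated ASCL2 line and the untreated and treated WiNTRLINC1 line was 58.9%, 21.9%, 60.2% and 52.6% with pseudogenes added to their parents, and 72.6%, 35.3%, 74.5% and 68.5% with the longest coding transcript as length. The cause of these changes was not tested.

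With the replicate number as a replicate block, other SUMO pathway genes called in the line with the WiNTRLINC1 hairpin were 1 lower and 0 higher, and members other than SUMO3 called higher in the untreated comparison 1, since UBA2 was lost (limma, adjusted p = 0.0672). SAE1 became called there (adjusted p from limma = 0.0496). The labels do not say what a number marks. The deviations of same-numbered libraries correlated at -0.193 (ASCL2 line) and 0.445 (WiNTRLINC1 line) across 8438 genes. Over all genes the block called 6148 and 4298 genes in the lines, against 5884 and 4104 without it, 3926 and 2395 with no filter, 3410 and 1873 without the trend and 4732 and 2713 with each line alone. The 3314 genes called for a difference between the lines became 1914 with no filter and 1313 without the trend.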
